A study of Mus musculus with 24 samples.

Results

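Wild-type (WT) mouse naive CD4 T cells were profiled on Affymetrix microarrays after 4 h of stimulation with plate-bound anti-CD3 and soluble anti-CD28, and before stimulation (0 h). The comparison sets 3 arrays at 4 h against 3 at 0 h, 6 of the 24 arrays of the series, chosen by their titles, over all 22180 genes that could be named. The WT mice were littermates of TRIM28 knockout (KO) mice, and the remaining 18 arrays hold WT cells at 24 and 72 h and KO cells at all 4 times. KO arrays at 4 h and 0 h, 3 each, gave a response to the same stimulation in cells that lack TRIM28, and the later WT arrays gave levels. All 24 arrays entered the fit and its estimate of the spread, on which every SE and p rests, and with the 6 arrays alone 6559 genes passed in place of 7695. No strain, age, sort gate or means of deleting Trim28 was given in the sources read, and nothing in the labels ties arrays to separate animals, so p-values measure the spread between arrays. All groups share the magnetic enrichment and the flow cytometric sort, but the 4 h cells alone of this pair were in culture with both antibodies, so that the effect of culture and that of the antibodies cannot be told apart.

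Anti-CD3 stands in for antigen by engaging the T cell receptor complex, and anti-CD28 supplies the co-stimulatory signal. In textbook accounts the receptor signals through calcium and NFAT, through RAS and the MAP kinases, and through protein kinase C and NF-kappa-B. Immediate early transcription factors come first, cytokines and their receptors follow, and the cell then grows before it divides. A naive T cell, in contrast, is kept small and quiescent by factors such as KLF2 and FOXO1 and by signals through the interleukin 7 receptor.

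Values are log2 intensities as deposited, a change is the 4 h mean minus the 0 h mean on that scale, with its standard error (SE) from limma, and a gene counts as risen or fallen where the Benjamini-Hochberg adjusted p over all genes was below 0.05. Because RMA gives the probe intensities of all arrays the same distribution, a change shared by all RNA of a cell is not seen. The deposited probe set values can still differ somewhat in distribution. Nor can fewer cells of a type and less RNA per cell be told apart in such bulk samples. Correlations between arrays of a group were 0.981 to 0.990, against 0.951 to 0.963 between a 4 h and a 0 h array. The 4 h array 1 had a median of 3.60, below the 3.73 to 3.74 of the other 5 arrays. Without it 3654 genes rose and 3386 fell. In the WT and KO groups at 4 h and 0 h the arrays numbered 3 had male Y-linked levels and those numbered 1 and 2 female Xist levels.

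At 4 h 3737 genes were higher and 3958 lower than at 0 h, which is 16.8% and 17.8% of those tested. At least a 2-fold change was seen in 900 genes that rose (4.06%) and 1111 that fell (5.01%), 9.07% together, at least 4-fold in 137 and 204, and at least 8-fold in 41 and 27. The median change of all genes was -0.0045 and the median absolute change 0.19, beside a median SE of 0.12. Of the genes past the threshold 7256 had 4 h and 0 h arrays that did not overlap. Such a separation goes with passing the threshold and was not counted over all genes, so the count adds no support. With genes put into 5 equal bins by mean level over all arrays, the share past the threshold was 7.15%, 8.66%, 20.4%, 61.8% and 75.5% from the lowest bin to the highest. All counts of list members below are to be read beside 16.8% risen and 17.8% fallen. Those of bright lists are to be read beside the shares of the highest bins as well.

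**Figure D1:**
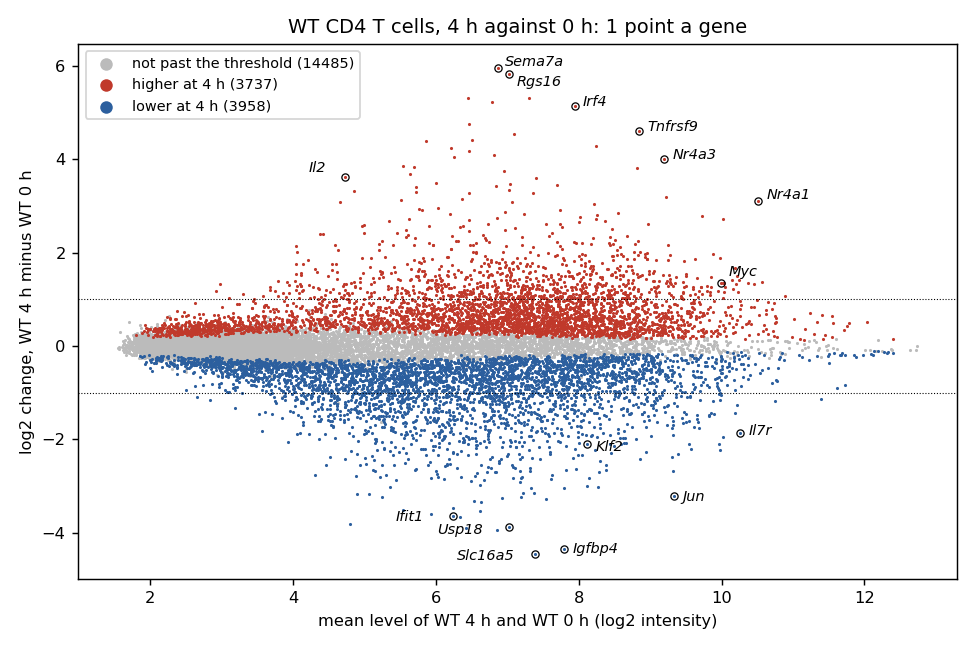
Each point is 1 gene, with its mean level over the WT 4 h and 0 h groups (log2 intensity) on the x axis and its log2 change, 4 h minus 0 h, on the y axis; 3737 genes were higher (red) and 3958 lower (blue) at 4 h, and dotted lines mark 2-fold changes. The highest rises reach 5.94 in Sema7a and the lowest fall -4.46 in Slc16a5.

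Immediate early transcription factors were split at 4 h: 14 of 24 rose (against 16.8% of all genes) and 6 fell (against 17.8%), with a median change of 0.50. The nuclear receptors of the NR4A family, which are induced by receptor signalling without a ligand being needed, were among the highest. Nr4a2 was at 9.97, 9.98 and 9.93 on the 4 h arrays, against 5.44, 4.21 and 4.32 on the 0 h arrays, a rise of 5.30 (SE 0.20) or 39.5-fold. Nr4a3 was at 11.08, 11.33 and 11.21 at 4 h, against 7.01, 7.25 and 7.33 at 0 h, and rose by 4.01. Nr4a1, which encodes NUR77, was at 12.04, 12.12 and 12.02 at 4 h, against 9.33, 8.73 and 8.81 at 0 h, and rose by 3.1 (SE 0.12, adjusted p = 5.57e-17). In all 3 the groups of arrays lay far apart and the 4 h arrays close together.

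The zinc finger factors of the EGR family act downstream of MAP kinases and serum response factor, which binds the CArG box. Egr2 was at 8.95, 8.99 and 9.05 at 4 h, against 5.62, 5.76 and 5.76 at 0 h, and rose 9.74-fold. Egr1 rose by 1.95 (SE 0.12), and Fosl2, a partner in the AP-1 dimer, by 3.03. The Egr2 promoter is shown because it holds a CArG box. It is the window of 250 bases before to 50 after 1 of 5 RefSeq starts of Egr2 on GRCm38.p6, at chr10:67537316-67537615, plus strand, with the CArG box in capitals:
Egr2: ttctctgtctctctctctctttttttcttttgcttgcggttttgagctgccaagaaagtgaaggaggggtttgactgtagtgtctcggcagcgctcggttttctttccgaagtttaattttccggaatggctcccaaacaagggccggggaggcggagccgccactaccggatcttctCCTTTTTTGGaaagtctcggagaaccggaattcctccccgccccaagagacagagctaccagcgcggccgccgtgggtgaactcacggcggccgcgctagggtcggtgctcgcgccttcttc
A CArG box was found in 5 of 29 such windows of the immediate early list (17.2%), against 298 of 20520 windows of all genes (1.45%), where genes with several starts count once for each start. Of these 5 windows 4 are those of Egr2 itself. Such a match describes letters, not binding.

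The other side of the list holds the classical AP-1 subunits, which were lower at 4 h than in the freshly sorted cells. Jun was at 7.98, 7.96 and 7.25 at 4 h, against 11.09, 10.94 and 10.79 at 0 h, and fell by 3.21 (SE 0.16, adjusted p = 1.03e-14), 9.26-fold lower. The other 5 that fell, named after their values were seen, were Klf6 (-1.98), Fos (-1.94), Junb (-1.47), Fosb (-1.26) and Jund (-0.99). JUN and FOS proteins pair to form AP-1, and their genes are known for rapid and brief induction by many stimuli. The feedback genes Dusp1, a MAP kinase phosphatase, (-1.42) and Socs3, an inhibitor of cytokine receptor signalling, fell as well. Socs3 was at 5.08, 4.95 and 4.93 at 4 h, against 7.66, 7.12 and 8.03 at 0 h. Dusp1, like Fos, is named after its value was seen.

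Transcription factors of activation and of T helper subsets rose in 15 of 33 cases and fell in 9, with a median of 0.03. Irf4, which acts with BATF and AP-1 in activated T cells, was at 10.42, 10.63 and 10.52 at 4 h, against 5.39, 5.06 and 5.68 at 0 h, and rose by 5.15 (SE 0.11, adjusted p = 6.62e-21), or 35.4-fold. Its relative Irf8 rose by 2.90, the follicular helper factor Bcl6 by 2.31, Bhlhe40 by 1.87 and the hypoxia factor Hif1a by 1.51. Falls were seen in Gata3, the T helper 2 factor, at 6.04, 6.03 and 5.78 at 4 h, against 7.51, 7.68 and 7.43 at 0 h. Zbtb7b, which encodes the CD4 lineage factor ThPOK, fell by 1.11, and Tbx21, the T helper 1 factor, rose by 0.62 (SE 0.17, adjusted p = 0.00491). Gfi1, a zinc finger repressor of lymphocytes outside these lists, rose by 3.60.

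Of the NF-kappa-B subunits, inhibitors and regulators 9 of 22 rose and 9 fell, with a median of 0.03. The list is bright, with a mean level of 8.02 to 8.11 at 4 h, and bright genes passed more often. The subunit genes Rel (1.88), Nfkb2 (1.82) and Relb (1.53) and the nuclear inhibitor gene Nfkbid (1.97) rose, each with 4 h arrays above the 0 h arrays. Rel was at 10.78, 11.03 and 10.93 at 4 h, against 9.09, 9.04 and 8.99 at 0 h. Bcl3, which encodes an atypical member of the inhibitor family, went the other way, with 5.50, 5.43 and 5.12 at 4 h, against 7.63, 7.19 and 7.43 at 0 h.

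Co-stimulatory receptors and members of the TNF superfamily rose in 16 of 32 cases, 12 of them at least 2-fold, and fell in 9, with a median of 0.36. Tnfrsf9, which encodes 4-1BB, was at 11.07, 11.13 and 11.24 at 4 h, against 6.45, 6.29 and 6.87 at 0 h, a rise of 24.4-fold. Tnfsf11, which encodes RANKL, rose by 4.03, Slamf1 by 3.20, Tnfsf14, the ligand LIGHT, by 2.40 and Cd69, an early activation marker, by 1.22 (SE 0.06). Tnfsf14 was spread at 4 h, with 4.76 on array 1 beside 5.91 and 6.2. Among the falls were Cd226, an activating partner of TIGIT, with 3.83, 4.38 and 4.17 at 4 h, against 7.82, 7.66 and 7.69 at 0 h, and Tnfsf10, which encodes TRAIL, by 2.54. Inhibitory receptors rose in 10 of 19 cases and fell in 4, with a median of 0.51. Pdcd1, which encodes PD-1, was at 8.58, 8.80 and 9.19 at 4 h, against 4.83, 4.51 and 5.0 at 0 h, and Cd274, its ligand PD-L1, rose by 2.35. Tigit rose by 1.55, whereas Cd200r1 (-2.37), Cd96 (-1.62) and Lair1 (-1.58) fell.

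In the interleukin 2 system the ligand gene Il2 and the receptor chain gene Il2ra rose. The receptor chain gene Il2rg had no probe set of its own and was not analysed. Il2, the T cell growth factor, was at 6.6, 6.13 and 6.88 at 4 h, against 2.68, 3.27 and 2.78 at 0 h, and rose by 3.62 (SE 0.18, adjusted p = 5.56e-15). Il2ra, the high-affinity receptor chain CD25, was at 10.23, 10.49 and 10.43 at 4 h, against 6.07, 6.38 and 5.84 at 0 h, 19.5-fold higher. Of the cytokine genes 8 of 30 rose and 3 fell, with a median of 0.06, among them Tnf with 10.98, 11.17 and 11.20 at 4 h, against 8.40, 8.29 and 8.31 at 0 h. Lta, which encodes lymphotoxin alpha, rose by 1.35, Mif by 1.26, Lif by 1.13 and Tgfb1 by 0.83. Ifng, the T helper 1 cytokine, had a change of 0.33 with adjusted p = 0.0578, and Il17a, that of T helper 17 cells, one of -0.09 with adjusted p = 0.648. Of 18 chemokine genes 3 rose (16.7%, against 16.8% of all genes) and 0 fell, with a median of 0.03. Xcl1, which encodes lymphotactin, rose by 4.42 with 8.23, 8.64 and 9.29 at 4 h, against 4.31, 4.17 and 4.42 at 0 h, and Ccl3 by 1.15. Without the 4 h array 1, the 0 h array 1 or the 0 h array 3 the third, Ccl4 (0.38), lost its call (adjusted p = 0.0571, 0.0813 and 0.179).

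The windows of Tnfrsf9 and Il2ra are shown because both hold the NF-kappa-B consensus, in capitals, that of Tnfrsf9 together with an AP-1 motif (TGANTCA). They lie at chr4:150927749-150928048 and chr2:11642542-11642841 of GRCm38.p6, both on the plus strand, 1 of 2 RefSeq starts of Tnfrsf9 and the only one of Il2ra:
Tnfrsf9: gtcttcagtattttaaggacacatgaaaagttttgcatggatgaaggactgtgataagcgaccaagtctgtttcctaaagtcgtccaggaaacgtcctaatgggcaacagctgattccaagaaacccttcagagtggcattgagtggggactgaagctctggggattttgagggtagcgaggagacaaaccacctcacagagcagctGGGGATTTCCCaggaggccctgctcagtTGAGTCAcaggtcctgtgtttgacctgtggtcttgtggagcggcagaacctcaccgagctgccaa
Il2ra: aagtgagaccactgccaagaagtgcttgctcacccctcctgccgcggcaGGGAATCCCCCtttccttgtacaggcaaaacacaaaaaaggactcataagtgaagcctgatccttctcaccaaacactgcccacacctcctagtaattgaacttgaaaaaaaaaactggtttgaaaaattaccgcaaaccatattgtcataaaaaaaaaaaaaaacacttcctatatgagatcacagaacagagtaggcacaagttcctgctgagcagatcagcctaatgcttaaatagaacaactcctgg
Such motifs were common in all promoters, with the NF-kappa-B consensus in 90 of 846 windows of genes that rose at least 2-fold (10.6%), 118 of 1135 of those that fell at least 2-fold (10.4%) and 9.33% of all. The AP-1 motif was in 4.73%, 6.52% and 7.24%. At the 4-fold cut it was in 14 of 154 windows of genes that rose (9.09%) and 13 of 195 of those that fell (6.67%).

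Cytokine receptors, Il2ra included, were more often lower: 14 of 30 fell, 7 at least 2-fold, and 6 rose, with a median of -0.21. Il7r, the receptor for the survival cytokine interleukin 7, was at 9.08, 9.41 and 9.51 at 4 h, against 11.39, 11.03 and 11.14 at 0 h, and fell by 1.86 (SE 0.22, adjusted p = 7.57e-08). Il18r1 fell by 2.61, Tgfbr3 by 2.06, Il10ra by 1.79 and Il6ra by 1.48. Chemokine receptors and adhesion molecules were split, with 8 of 29 risen, 11 fallen and a median of -0.07. Ccr8 was at 8.90, 9.23 and 9.18 at 4 h, against 4.08, 4.11 and 3.19 at 0 h, and rose 39.6-fold, Ccr4 rose by 3.31 and Cxcr3 by 1.82, receptors that effector and regulatory T cells use to enter inflamed tissue. S1pr1, through which T cells leave lymph nodes, fell, with 8.75, 8.72 and 8.62 at 4 h, against 10.38, 10.39 and 10.21 at 0 h. The integrin genes Itgb7 (-2.99) and Itga4 (-2.11) and Selplg (-1.94), the selectin ligand PSGL-1, fell too.

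Feedback regulators of signalling rose in 17 of 33 cases and fell in 7, with a median of 0.38. Rgs16, which quenches G protein signals of chemokine receptors, was at 9.78, 9.91 and 10.12 at 4 h, against 4.03, 4.07 and 4.26 at 0 h, 56.4-fold higher. Spry1, an inhibitor of the RAS pathway, rose by 5.23, its relative Spred1 by 2.95 and the MAP kinase phosphatase gene Dusp4 by 2.35, with 7.40, 7.31 and 7.48 at 4 h, against 5.29, 4.21 and 5.63 at 0 h. Rgs14 fell by 2.55. Genes of the T cell receptor machinery fell in 19 of 38 cases (50%) and rose in 14 (36.8%), with a median of -0.26. They are bright, with a mean level of 9.14 to 9.23 at 4 h, against 9.31 to 9.33 at 0 h. In the bin of highest mean level 75.5% of all genes passed in either direction. Themis, an adaptor of receptor signalling, was at 6.70, 6.45 and 6.33 at 4 h, against 9.19, 9.29 and 9.0 at 0 h. Sit1 (-2.64), Sla2 (-1.94), the TEC kinase gene Txk (-1.73) and the adaptor gene Grap2 (-1.63) fell with it, and Ubash3b, a phosphatase that restrains the receptor, rose by 2.76.

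Among the largest changes outside the lists, Sema7a, a membrane semaphorin, was at 9.78, 9.93 and 9.81 at 4 h, against 4.36, 3.79 and 3.53 at 0 h, 61.6-fold higher. Other rises were in Mfsd2a, a lysolipid transporter (4.74), the sulfotransferase gene Chst2 (4.38), the steroid enzyme gene Akr1c18 (4.24), Gfod1 (4.18), Spin4 (3.85), the p38 kinase activator Map2k3 (3.80), the endosomal gene Eea1 (3.74) and Slamf7 (3.46). Map2k3os, on the opposite strand of Map2k3, rose by 3.48, and it was not stated whether its probe set reads that strand alone. The transporter gene Slc16a5 was at 4.67, 5.31 and 5.50 at 4 h, against 9.66, 9.57 and 9.65 at 0 h, 22.1-fold lower. Rasgrp2, which activates the small GTPase RAP1, fell by 3.94, Treml2 by 3.66, the Notch regulator Dtx1 by 3.35 and Pglyrp2 by 3.28. Kbtbd11 (-3.25), St6galnac2 (-3.24), Sh3bp1 (-3.24), H2aw (-3.18), Map2k6 (-3.17), Sema4a (-3.15), Acp5 (-3.04) and the phosphoinositide 3-kinase adaptor Pik3r5 (-3.02) were also among the lowest 25.

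**Figure D2:**
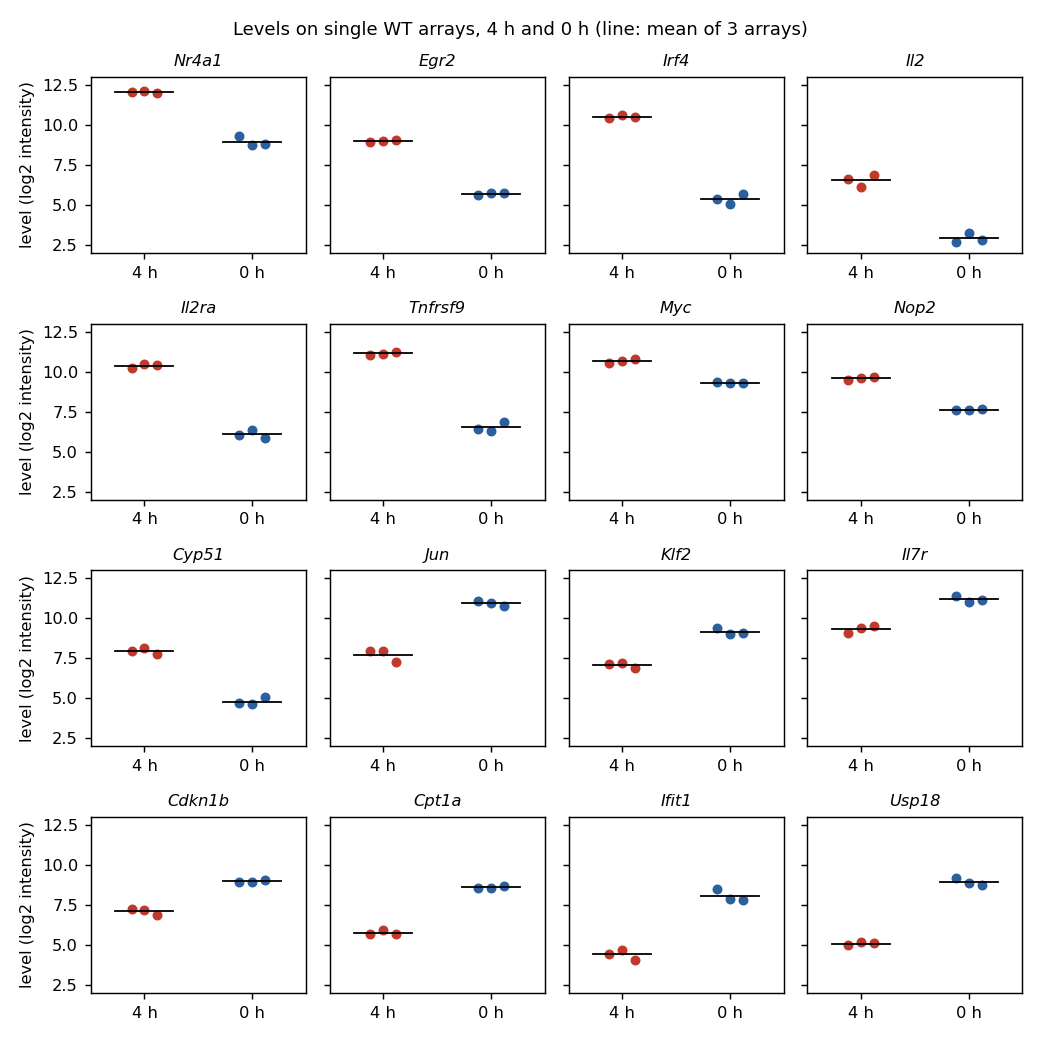
Levels (log2 intensity) of 16 genes on the single WT arrays, 4 h left (red) and 0 h right (blue), 3 arrays each, with a line at the mean. Levels are higher at 4 h in the first 9 panels (Nr4a1 to Cyp51) and lower in the last 7 (Jun to Usp18). The 16 genes were picked from those past the threshold, so that their groups do not overlap follows largely from the choice.

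Growth genes formed the most uniform rise. All 52 genes of ribosome biogenesis rose, 45 of them at least 2-fold, with a median of 1.52 and a range of 0.30 to 2.16. Nop2, a nucleolar methyltransferase, was at 9.47, 9.58 and 9.70 at 4 h, against 7.58, 7.59 and 7.65 at 0 h, and rose by 1.98 (SE 0.08, adjusted p = 2.3e-16). The ribosome assembly genes Noc3l (2.16), Rrp12 (2.12), Bysl (2.02) and Rrs1 (1.99) and Polr1b (2.15), a subunit of RNA polymerase I, led the list. The mean level over the 52 genes was 9.06 to 9.19 on the 4 h arrays, against 7.60 to 7.68 on the 0 h arrays. In KO cells, measured on other arrays, all 52 rose as well, with a median of 1.35.

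Myc, a transcription factor of growth that is known to drive ribosome biogenesis through E-boxes, was at 10.55, 10.66 and 10.80 at 4 h, against 9.35, 9.32 and 9.28 at 0 h, 2.56-fold higher. Of the 13 genes of its network 2 rose (15.4%) and 3 fell (23.1%), near the 16.8% and 17.8% of all genes, with a median of 0.03. The antagonists Mxd4 (-2.39, with 5.42, 5.70 and 5.64 at 4 h, against 7.87, 7.98 and 8.07 at 0 h) and Mxd1 (-1.03) fell. The Nop2 window is shown because it holds the E-box (CACGTG, in capitals), at chr6:125131633-125131932 of GRCm38.p6, plus strand:
Nop2: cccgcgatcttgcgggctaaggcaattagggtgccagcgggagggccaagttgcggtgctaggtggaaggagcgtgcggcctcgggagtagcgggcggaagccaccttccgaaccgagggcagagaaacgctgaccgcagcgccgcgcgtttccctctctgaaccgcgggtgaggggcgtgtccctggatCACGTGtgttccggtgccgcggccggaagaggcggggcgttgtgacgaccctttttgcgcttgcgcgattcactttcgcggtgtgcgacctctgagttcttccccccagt
The E-box was in 134 of 846 windows of genes that rose at least 2-fold (15.8%) and in 9 of 52 of the ribosome biogenesis list (17.3%), against 85 of 1135 windows of genes that fell at least 2-fold (7.49%) and 8.10% of all windows.

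Translation and its supplies rose alongside. Initiation factors rose in 23 of 30 cases and fell in 2, with a median of 0.53, Eif5b by 1.51, Eif2b3 by 1.43, Eif3b by 1.40 and the cap-binding factor Eif4e by 1.37. Aminoacyl-tRNA synthetases, which charge tRNAs, rose in 16 of 18 cases and fell in 0, with a median of 1.04, Tars with 9.48, 9.59 and 9.57 at 4 h, against 7.72, 8.03 and 8.04 at 0 h. Amino acid transport genes and targets of ATF4 rose in 18 of 29 cases and fell in 5, with a median of 0.67. Slc7a5, the large neutral amino acid transporter, was at 10.07, 9.91 and 9.87 at 4 h, against 8.0, 7.81 and 8.08 at 0 h, the glutamine transporter Slc1a5 rose by 2.62, and Shmt1, an enzyme of one-carbon metabolism, by 3.43. In polyamine and nucleotide synthesis 18 of 25 genes rose and 2 fell, with a median of 0.80. Odc1, the first enzyme of polyamine synthesis, rose by 1.87, Srm by 2.15, and the pyrimidine genes Ctps by 2.35, Umps by 1.93 and Cad by 1.57.

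Heat shock proteins and chaperones rose in 28 of 31 cases and fell in 0, with a median of 1.07. Hspa4l was at 9.22, 9.30 and 9.05 at 4 h, against 6.25, 6.33 and 6.28 at 0 h, Hsph1 rose by 2.73 and the mitochondrial chaperonin Hspd1 by 2.18. Hspa1a (3.29) and Hspa1b (2.48) are near-identical copies, so their probe sets may share signal.

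In lipid metabolism the synthetic and the oxidative genes moved in opposite directions. Of 29 genes of cholesterol and fatty acid synthesis 17 rose and 6 fell, with a median of 0.69. Cyp51, a sterol demethylase, was at 7.94, 8.13 and 7.75 at 4 h, against 4.68, 4.62 and 5.08 at 0 h, the squalene epoxidase gene Sqle rose by 2.70, Hsd17b7 by 2.33, Hmgcs1 by 1.93 and Fasn, the fatty acid synthase, by 1.65. Of the fatty acid oxidation genes 12 of 21 fell and 3 rose, with a median of -0.34. Cpt1a, which admits fatty acids to mitochondria, was at 5.68, 5.93 and 5.71 at 4 h, against 8.55, 8.57 and 8.70 at 0 h, and Hadh (-2.91), Acads (-1.44), Hadhb (-1.33) and Acadl (-1.0) fell too.

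Of 25 genes of glucose uptake and glycolysis 12 rose and 5 fell, with a median of 0.27. The lactate transporter Slc16a1 was at 9.61 on each 4 h array, against 7.36, 7.08 and 7.36 at 0 h, the hexokinase gene Hk2 rose by 1.89, Pgam1 by 1.42, Pgk1 by 1.26 and the glucose transporter Slc2a1 by 0.83 (SE 0.08, adjusted p = 1.21e-09). Pdk1, a pyruvate dehydrogenase kinase gene, was at 6.03, 5.95 and 6.06 at 4 h, against 8.61, 8.69 and 8.57 at 0 h. Oxidative phosphorylation subunits rose in 18 of 35 cases and fell in 2, with a median of 0.31. Cycs, which encodes cytochrome c, rose by 1.52, and no other member of that list changed 2-fold. The genes of household use Actb (0.29) and Gapdh (0.33) rose too.

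**Figure D3:**
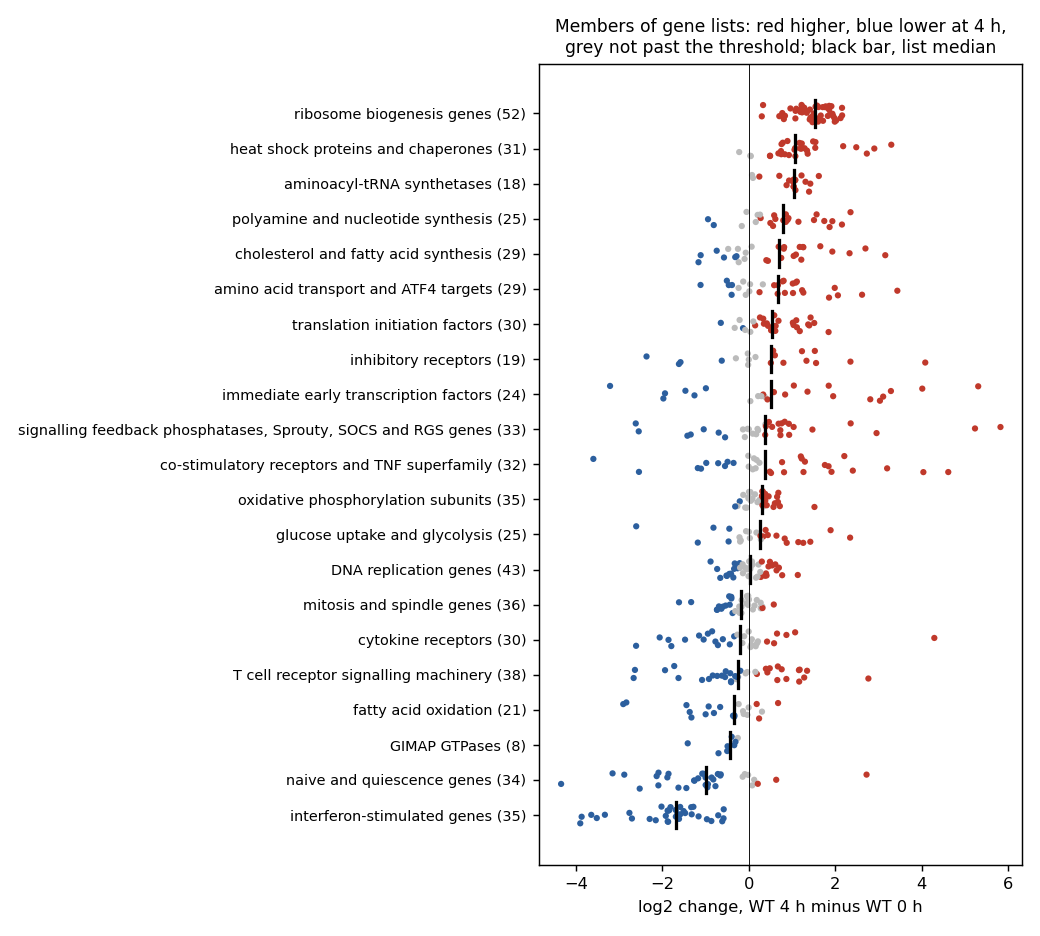
Log2 change, WT 4 h minus 0 h, of each member (points) of 21 gene lists, with list sizes in brackets, red higher and blue lower at 4 h, grey not past the threshold, and a black bar at the list median. Ribosome biogenesis (median 1.52) lies wholly right of 0 and interferon-stimulated genes (median -1.69) wholly left.

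Cell division genes had not risen as a group at 4 h. Of 43 DNA replication genes 14 rose and 14 fell, with a median of 0.03, Orc2 (1.13) being the only 2-fold change. Of the mitosis and spindle genes 13 of 36 fell and 2 rose, with a median of -0.17. The list is dim, with a mean level of 4.11 to 4.14 at 4 h, against 4.31 to 4.38 at 0 h. Mki67, a marker of dividing cells, was at 3.85, 3.82 and 4.26 at 4 h, against 4.81, 4.49 and 4.72 at 0 h, and Ndc80 fell by 1.62 and Ccna2 by 0.74. Genes of the G1 phase rose in 10 of 31 cases and fell in 11, with a median of -0.10. Cdkn1a, which encodes the inhibitor p21, was at 7.51, 7.70 and 7.60 at 4 h, against 4.10, 3.60 and 3.63 at 0 h, whereas the inhibitors Cdkn1b, p27 (-1.89), and Cdkn2d (-2.74) and the pocket protein genes Rbl2 (-2.13) and Rbl1 (-1.93) fell. The G1 cyclin gene Ccnd3 fell by 1.75.

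Of 34 naive and quiescence genes 26 fell, 17 of them at least 2-fold, and 3 rose, with a median of -1.0. Klf2, the quiescence factor, was at 7.13, 7.2 and 6.90 at 4 h, against 9.39, 9.04 and 9.08 at 0 h, and fell by 2.09 (SE 0.18, adjusted p = 4.05e-10). Igfbp4 (-4.34), Dapl1 (-3.15), the phosphoinositide 3-kinase inhibitor Pik3ip1 (-2.88) and Ddit4, an inhibitor of mTORC1 (-2.53), fell too. Itm2a rose against its list, with 11.31, 11.44 and 11.40 at 4 h, against 8.90, 8.51 and 8.58 at 0 h. The mean level over the list was 8.02 to 8.15 at 4 h, against 9.17 to 9.21 at 0 h. Of the 8 GIMAP GTPase genes, which support lymphocyte survival, 7 fell and 0 rose, with a median of -0.45, Gimap7 the most with 5.93, 5.48 and 5.17 at 4 h, against 7.14, 6.94 and 6.75 at 0 h. The call of Gimap4 (-0.34) ended without the 4 h array 2 or 3 or the 0 h array 1 (adjusted p = 0.0562, 0.0716 and 0.0903).

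Interferon-stimulated genes were lower at 4 h without exception: all 35 fell, 29 of them at least 2-fold, with a median of -1.69. These genes are known to be induced by type I interferon, and many encode antiviral proteins. Usp18, a protease that restrains interferon signalling, was at 4.97, 5.18 and 5.11 at 4 h, against 9.17, 8.91 and 8.78 at 0 h, 14.6-fold lower. Ifit1 was at 4.44, 4.71 and 4.09 at 4 h, against 8.52, 7.86 and 7.80 at 0 h, 12.5-fold lower, and the oligoadenylate synthetase gene Oas2 was at 4.13, 4.92 and 4.36, against 8.65, 8.47 and 7.99. On each of these the 0 h array 1 was the highest, and without it 32 of the 35 still passed, with a median of -1.71. Oasl2 (-3.52), Rtp4 (-3.33) and Cmpk2 (-2.76) fell likewise, as did Xaf1 (-3.48), Zbp1 (-3.05) and Ddx60 (-3.01), which are not in that list but are known to be induced by interferon. The mean level over the list was 5.14 to 5.31 at 4 h, against 6.93 to 7.29 at 0 h.

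The windows of Ifit1 and Ddx60 are shown for their matches to the core of the interferon-stimulated response element, GAAA and GAAA with 2 bases between them, in capitals on whichever strand. This motif was added after the values were seen. The windows lie at chr19:34640639-34640938 and chr8:61927837-61928136 of GRCm38.p6, both on the plus strand:
Ifit1: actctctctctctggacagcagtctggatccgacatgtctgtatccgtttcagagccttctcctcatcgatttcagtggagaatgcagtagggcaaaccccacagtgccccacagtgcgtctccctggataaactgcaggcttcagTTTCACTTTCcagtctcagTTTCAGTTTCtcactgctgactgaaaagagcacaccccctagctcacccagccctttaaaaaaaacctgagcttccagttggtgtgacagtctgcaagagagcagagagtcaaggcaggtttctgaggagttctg
Ddx60: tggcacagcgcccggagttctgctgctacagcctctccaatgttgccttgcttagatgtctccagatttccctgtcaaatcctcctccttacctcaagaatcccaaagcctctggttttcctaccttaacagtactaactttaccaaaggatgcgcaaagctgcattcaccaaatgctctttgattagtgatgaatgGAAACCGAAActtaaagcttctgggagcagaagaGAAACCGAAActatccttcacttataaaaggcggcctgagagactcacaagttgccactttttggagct
Each window holds 2 matches. The core was in 17 of 33 windows of the interferon list (51.5%), in 6.08% of those of genes that fell at least 2-fold, in 1.89% of those of genes that rose at least 2-fold and in 3.32% of all.

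Of the remaining motifs, the cAMP response element (TGACGTCA) was in 3.07% of windows of genes that rose at least 2-fold, in 1.23% of those that fell and in 2.32% of all, and the EGR motif (GCGTGGGCG) in 1.42%, 1.23% and 0.853%. CCAAT was in 35.3%, 38% and 37.7%, and in 20 of 30 windows of the cholesterol and fatty acid synthesis list (66.7%). TATAAA was in 6.74%, 8.37% and 12.3%, and the CArG box in 1.06%, 1.59% and 1.45%. Both strands were searched, and a CArG box can contain TATAAA. The shares moved with the cut. In the 154 windows of genes that rose at least 4-fold the cAMP response element was in 0.649%, the EGR motif in 0.649% and the CArG box in 3.25%. In the 195 windows of genes that fell at least 4-fold they were in 0.00%, 1.03% and 3.08%.

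The remaining lists changed in both directions. Of the regulators of mRNA decay, a bright list (mean level 8.37 to 8.43 at 4 h), 10 of 27 rose and 10 fell, with a median of 0.05. Zfp36l1 changed by 1.08 and its relative Zfp36l2 by -1.43. Of 15 BCL2 family genes 3 rose (20%) and 4 fell (26.7%), against 16.8% and 17.8% of all genes, with a median of 0.04. They were led by Bcl2a1a (2.42), whose near-identical copies may share its probes. Of the p53 targets 11 of 23 rose and 5 fell, with a median of 0.32, Gadd45b by 2.19 and Aen by 1.61, while Sesn1 fell by 1.62. Autophagy and lysosome genes fell in 16 of 35 cases and rose in 9, with a median of -0.18, among them the cathepsin gene Ctsd (-2.09), Atg9a (-1.97) and the kinase gene Ulk2 (-1.54). Of TRIM28 and its heterochromatin partners 10 of 25 rose and 9 fell, with a median of -0.02. Trim28 itself was at 8.41, 8.48 and 8.38 at 4 h, against 7.81, 7.71 and 7.84 at 0 h, Dnmt3a, a DNA methyltransferase, rose by 1.35 and Ehmt2, a histone methyltransferase, fell by 1.42. Among 336 zinc finger genes with a numbered Zfp symbol there were 56 rises and 73 falls, near the shares of all genes, with a median of -0.05, Zfp948 (4.54) being the highest and Zfp831 (-1.93) the lowest.

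Small RNA genes were measured through probe sets on their hairpin or host transcript, not as mature RNAs. Of 467 microRNA genes 47 rose (10.1%) and 51 fell (10.9%), with a median of -0.02. Mir212 was at 6.92, 6.6 and 6.50 at 4 h, against 4.52, 3.65 and 3.83 at 0 h, and rose by 2.68 (SE 0.18, adjusted p = 2.93e-12). Mir1949 rose by 2.15 and Mir23a by 1.53, with a spread of 5.30, 4.78 and 4.32 at 4 h, against 3.33, 3.30 and 3.18 at 0 h. Mir1904 was at 3.7, 4.52 and 4.30 at 4 h, against 6.71, 6.11 and 6.31 at 0 h, and Mir5123 fell by 1.57 and Mir3075 by 1.48. Other microRNA genes, named after their values were seen, were Mir27a (1.32), Mir15a (1.42), Mir18 (1.14), Mir18b (1.12), Mir19a (0.92) and Mir20a (0.67), while Mir20b fell by 0.92. Relatives by name or seed of those that rose did not all move with them: Mir132 had a change of 0.17 (adjusted p = 0.391), Mir16-1 one of -0.17 (adjusted p = 0.377), and Mir23b (-0.69) and Mir195a (-0.41) fell. Mir16-2, whose miR-16-5p shares the seed of miR-15a-5p, did rise, by 0.72 (limma adjusted p = 0.00596). Of the 98 microRNA genes past the threshold 83 had a mature sequence in RefSeq. Those printed are a choice from the genes named here, made after their values were seen, with the seed (bases 2 to 8) in capitals, 5′ to 3′, on GRCm38.p6:
miR-212-3p: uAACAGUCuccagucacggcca
miR-23a-3p: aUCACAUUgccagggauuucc
miR-27a-3p: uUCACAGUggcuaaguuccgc
miR-15a-5p: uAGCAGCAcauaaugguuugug
miR-18a-5p: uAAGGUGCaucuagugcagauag
miR-18b-5p: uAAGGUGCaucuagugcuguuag
miR-20a-5p: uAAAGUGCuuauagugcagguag
miR-20b-5p: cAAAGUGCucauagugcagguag
miR-1904: gUUCUGCUccucuggagggagg
miR-5123: uGUAGAUCcauaugccauggugug
miR-18a-5p and miR-18b-5p share a seed and the genes of both rose, whereas miR-20a-5p and miR-20b-5p share a seed and their genes, on chromosomes 14 and X, changed in opposite directions. Mir18b (1.12) and Mir19b-2 (0.51, limma adjusted p = 0.0493, just below the threshold) lie close to Mir20b on chromosome X and rose. Whether position bears on the direction was not tested. Mir18, Mir19a and Mir20a lie on chromosome 14 in the cluster of miR-17, and Mir23a and Mir27a side by side on chromosome 8. Hairpins that resemble each other may share signal on the array. Of 78 small nucleolar RNA genes 15 rose (19.2%) and 18 fell (23.1%), with a median of -0.09, Snord53 by 1.86 and Scarna8 by -0.93. Of 2945 predicted genes 7.30% rose and 11.0% fell, and of 17824 probe sets with several genes or none 8.33% and 8.88%.

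Markers were read against the label of the cells. Cd4 was at 10.22, 10.47 and 10.48 at 4 h, against 11.16, 11.06 and 11.15 at 0 h, and Cd3e at 11.84 to 11.95, against 12.02 to 12.19. Of 11 CD4 T cell markers 3 rose and 7 fell, with a median of -0.27, Thy1 by -1.32, Bcl11b by -1.49, Trat1 by -1.5 and Cd5 by 0.51. Of 14 B cell markers 4 fell and 0 rose, with a median of -0.41, and their mean level was 3.74 to 4.36 on the 4 h arrays, against 4.0 to 4.87 on the 0 h arrays. Bank1 was at 3.93, 4.41 and 4.63 at 4 h, against 5.98, 5.31 and 6.29 at 0 h. Of 9 natural killer and innate lymphoid markers 3 fell and 0 rose, with a median of -0.12 and mean levels of 3.89 to 4.02, against 4.06 to 4.44, Klrd1 by -1.39. Myeloid and dendritic markers rose in 2 of 19 cases and fell in 2, with a median of -0.07 (mean level 3.22 to 3.54, against 3.40 to 3.53). Of 6 erythroid and platelet markers 1 fell, with a median of -0.10 (3.38 to 3.46, against 3.51 to 3.61), and of the 2 CD8 markers 1, with a median of -0.24 (4.18 to 4.76, against 4.58 to 4.80). The scale has no zero and no detection calls, and the part of the B cell and natural killer markers in the other falls at 4 h was not tested.

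Later times share the 0 h arrays with this comparison, so WT levels are given side by side at 0, 4, 24 and 72 h as means of 3 arrays. Egr2 was at 5.71, 9.0, 7.2 and 6.15, and Bcl6 at 7.05, 9.36, 5.71 and 5.60, both highest at 4 h. Irf4 was at 5.38, 10.52, 10.05 and 10.05. Il2 was at 2.91, 6.53, 9.91 and 10.27, highest at the latest time. Klf2 was lower at each later time, with 9.17, 7.08, 5.22 and 4.0. Of the interferon-stimulated genes, Usp18 was at 8.95, 5.09, 5.04 and 10.82, Ifit1 at 8.06, 4.41, 4.55 and 8.94, so that both were again high at 72 h, while Oas2 was at 8.37, 4.47, 4.08 and 5.45. Mki67 was at 4.67, 3.98, 8.94 and 10.09.

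**Figure D4:**
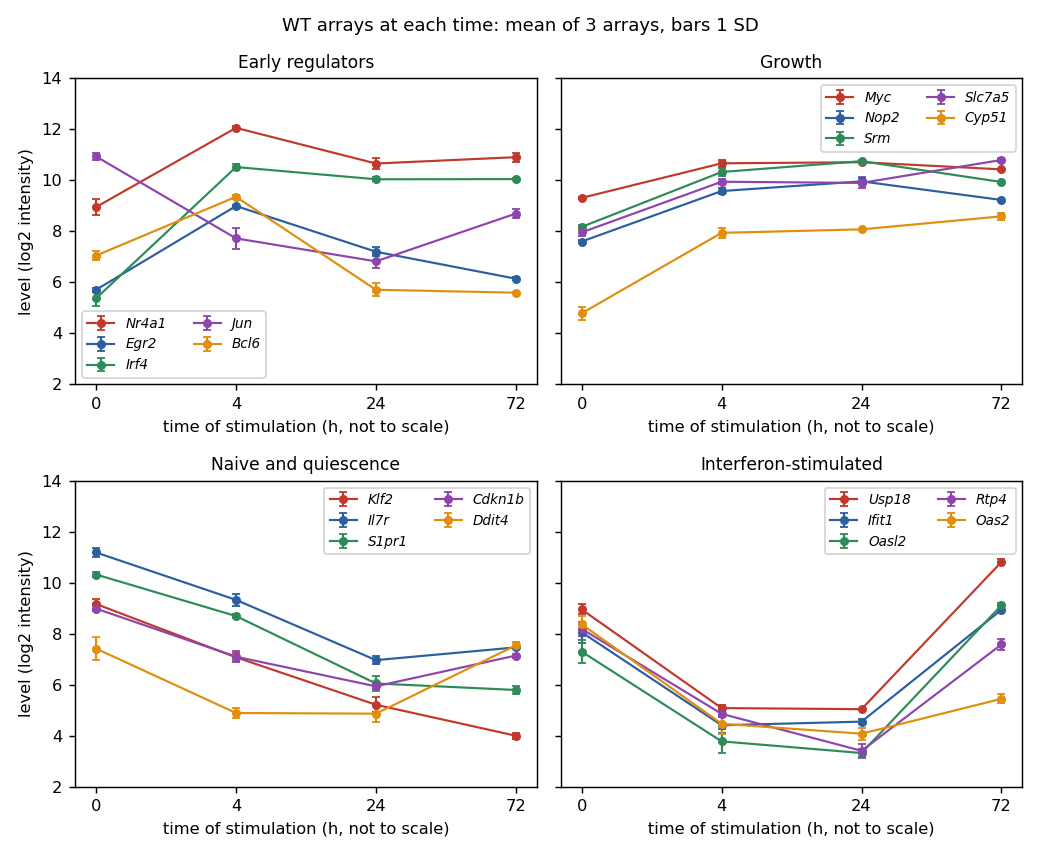
Mean level (log2 intensity) of 20 genes in 4 panels on WT arrays at 0, 4, 24 and 72 h, with bars of 1 SD over 3 arrays and times not to scale. Egr2 and Bcl6 peak at 4 h, Klf2 falls through all times, and Usp18 is at 5.09 at 4 h and 10.82 at 72 h.

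The same stimulation in KO cells, whose means come from other arrays but whose spread is estimated in the same fit, gives the early response in the absence of TRIM28. At 4 h Trim28 was at 5.32 ± 0.15 in KO cells and 8.42 ± 0.05 in WT cells, and at 0 h it was at 5.16 ± 0.26 in KO cells and 7.78 ± 0.07 in WT cells (SD, n = 3). Where its probe set lies relative to the deleted part is not known here, so the level left in KO cells cannot be read as intact transcript. In KO 3343 genes rose (15.1%) and 3552 fell (16.0%). Of the genes that rose in WT 2834 (75.8%) also rose in KO and 5 fell, and these are 84.8% of the KO rises. Of those that fell in WT 2945 (74.4%) also fell in KO and 9 rose, or 82.9% of the KO falls. Across the 22180 genes, which are not independent, the changes had a Pearson r of 0.918 and a Spearman rho of 0.744. List by list, all 52 ribosome biogenesis genes rose in KO and 34 of 35 interferon-stimulated genes fell, with a median of -1.32 over that list.

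KO and WT cells differed in their response, by a test of that difference, in 161 genes (0.726%), 99 with a higher and 62 with a lower change in KO. A higher change can be a shallower fall. Of these genes 129 also passed in WT, and in 120 of them the difference was opposite in sign to the WT change. Those 129 were selected in part on the WT change, which also enters the difference. The count was 79 when only the arrays of the groups compared were fitted, 73 with the replicate number as a block in that fit, 76 on arrays 1 and 2 alone and 9 against a 1.5-fold threshold. Usp18 fell by 1.63 in KO and 3.87 in WT, a difference of 2.23 (SE 0.22, adjusted p = 8.58e-07), with 8.20 in KO and 5.09 in WT at 4 h. Otud1, a deubiquitinase, rose in KO by 1.89 where WT had a change of -0.05. The rise of Il2ra was 3.58 in KO and 4.29 in WT, that of Spry1 4.10 and 5.23, that of Ccr4 1.72 and 3.31 and that of Zfp948 3.21 and 4.54. Upk1b (-4.37), Snai3 (-2.83), Ccdc102a (-1.97), Pltp (-1.89) and Trim24 (-1.60) had the lowest differences, all with higher 0 h levels in KO than in WT. For Upk1b these were 8.69 ± 1.39 in KO and 3.40 ± 0.12 in WT (SD, n = 3).

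**Figure D5:**
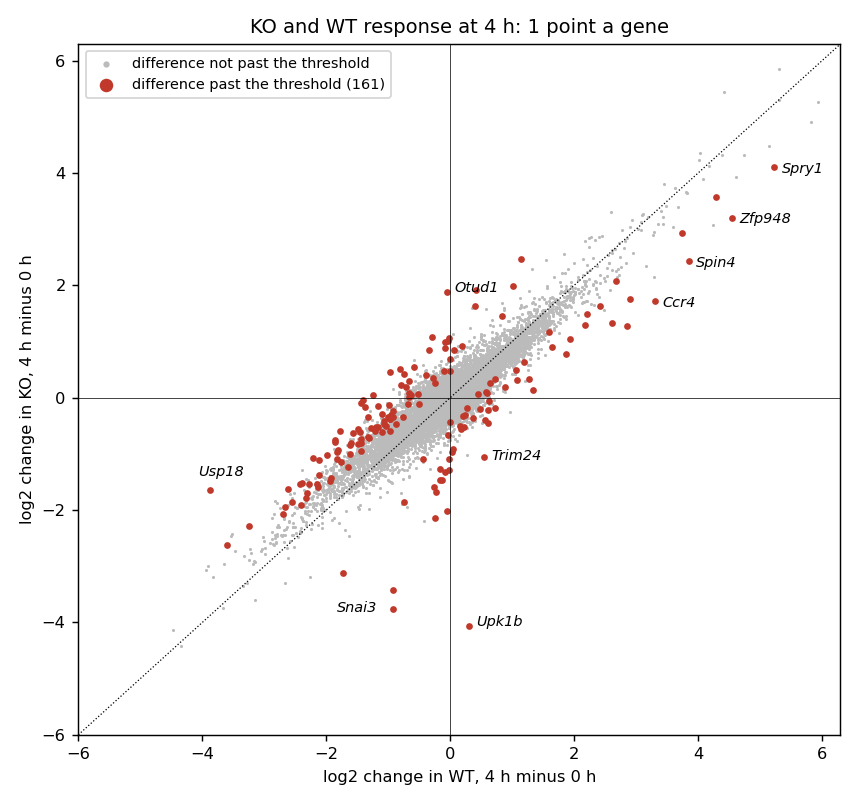
Each point is 1 gene, with the log2 change (4 h minus 0 h) in WT on the x axis and in KO on the y axis, a dotted line of equal change, and in red the 161 genes whose difference passed the threshold. Most points lie along the line; Usp18 lies above it and Upk1b, Snai3, Ccr4 and Spry1 below.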

How the data were processed

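RNA of WT and TRIM28 KO naive CD4 T cells at 0, 4, 24 and 72 h was hybridised to 24 Affymetrix arrays, 3 in each of 8 groups. The deposited values are log2 intensities normalized by the authors with RMA in oligo, per the submitters' processing notes; neither the probe set level nor a batch correction was stated there. Of 41345 probe sets 23521 had 1 gene in the platform annotation, and names were updated by Entrez ID against RefSeq GRCm38.p6 (23328 matched). Where several probe sets named a gene (1082 genes), that of the highest mean stood for it, which left 22180 genes. Group means were fitted on all 24 arrays with limma 3.58.1 (R 4.3.3, mean-variance trend), with Benjamini-Hochberg adjustment over all genes and 24.8 degrees of freedom. The fit was tested on simulated data. The genes named are the 25 largest rises and 25 largest falls among called genes whose arrays do not overlap, the 6 leading called members of each list with at least 3, a fixed set of check genes and the 5 leading differences each way between the KO and WT responses, 278 in all; others are said to be named after their values were seen. List members without a probe set of their own were not analysed here. The members and lists were chosen with earlier results of these data known. Alternatives tried were probe set averaging, a filter on low genes, renewed quantile normalization, fewer arrays, other eBayes settings, a block for the replicate number, a 1.5-fold threshold and leaving out each array. Intensities carry no counts, so the number of arrays limits the precision. RefSeq promoter windows run from 250 bases before to 50 after a start.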

Additional observations from a re-analysis of the deposited data

Results flagged for a closer look

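The response of KO cells differed from that of WT cells, by a test of the difference itself (limma, adjusted p below 0.05), in the following named genes, with the difference given as KO change minus WT change on the log2 scale. No explanation was weighed. Among genes that rose in WT the difference was -1.13 for Spry1, -1.34 for Zfp948, -0.71 for Il2ra, -1.42 for Spin4, -0.81 for Eea1, -1.13 for Irf8, -1.59 for Ccr4, -0.88 for Hmgcs1 and 1.32 for Ccl3. Among genes that fell in WT it was 2.23 for Usp18, 0.97 for Cd226, 0.96 for St6galnac2, 0.86 for Mxd4, 0.72 for Themis, 0.98 for Il18r1, 0.74 for Itga4, 0.54 for Rbl2, 0.46 for Rbl1, 0.50 for Acads and 0.63 for Sesn1. The microRNA genes Mir1904 and Mir3075 had differences of 1.13 and 0.92. Genes named for the size of the difference were Otud1 (1.94), Yes1 (1.51), Akr1b10 (1.43), Gpr155 (1.38), Upk1b (-4.37), Snai3 (-2.83), Ccdc102a (-1.97), Pltp (-1.89) and Trim24 (-1.60).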

How the results depend on the processing

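The 7695 genes past the threshold in WT became 7649 with probe sets averaged, 7338 without low genes, 7831 after renewed quantile normalization (4009 rose and 3822 fell), 6559 from the arrays of the groups compared alone and 6744 from arrays 1 and 2 alone. Against a 1.5-fold threshold 2404 passed (1137 rose, 1267 fell), and 1884 in KO. The 161 differences between the responses became 79 from the groups compared alone, 76 from arrays 1 and 2 alone and 9 against 1.5-fold. Leaving out 1 array in turn gave 7040 to 7669 genes in WT (3426 to 3654 rose, 3386 to 4017 fell), 1988 to 2054 at least 2-fold, 6258 to 6596 in KO and 112 to 216 differences. The numbers 1 to 3 are shared by all groups, and number 3 was male at 4 h and 0 h. Same-numbered 4 h and 0 h arrays deviated together only weakly, with r of 0.019, 0.097 and 0.143 in WT and 0.055, 0.144 and 0.097 in KO. Without X and Y genes r was -0.002, 0.07 and 0.053 in WT and 0.028, 0.115 and -0.017 in KO. Whether a number marks a shared animal or batch is not known, and the main fit did not pair by number. With the number as a replicate block 7760 genes passed in WT, 6943 in KO and 197 for the difference on all arrays, and 6594, 6334 and 73 on the groups compared. Of the 278 named genes 270 passed, and 0 of those changed sign under these alternatives; 52 did not pass the 1.5-fold threshold and 18 lost their call elsewhere. Genes not past the threshold changed sign for Otud1 (-0.1534 to 0.0129 without 1 array), Ccdc102a (0.0095 after quantile normalization, -0.1843 to 0.159 without 1 array) and Il17a (0.0629 on arrays 1 and 2, -0.1796 to 0.0741 without 1 array). The median changed sign in 12 of 42 lists under at least 1 alternative, and in 0 of the 23 with a median of at least 0.2 in size. The share past the threshold rose with mean level, so changes of dim genes are the least resolved.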
